A study of Mus musculus with 18 samples.

Results

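The 34 genes described here encode antioxidant and redox proteins: superoxide dismutases and catalase, glutathione peroxidases, peroxiredoxins and sulfiredoxin, the thioredoxin system, glutaredoxins, enzymes of glutathione synthesis and reduction, the NRF2 pathway, and enzymes that supply NADPH. They were taken by symbol from a count table of 55291 genes, and all 34 symbols were present. The study deleted Vps34 (gene symbol Pik3c3), the class III phosphatidylinositol 3-kinase of autophagy and endosomal sorting, in mouse oocytes. Controls carried the floxed Vps34 alleles on both chromosomes without Cre, and the conditional knockout, called ZcKO by the submitters and cKO below, carried the same alleles with Zp3-cre. The Zp3 promoter is active in growing oocytes, so the deletion begins in the oocyte during its growth and the surrounding follicle cells keep the gene. Females were 5 weeks old. Germinal vesicle (GV) oocytes, arrested in meiotic prophase, were taken 46 h after PMSG, and ovulated MII oocytes, arrested at the second metaphase, 14 h after hCG. Each group had 3 libraries made by Smart-seq2 from 5 pooled oocytes with ERCC spike-in RNA, and the design text calls them biological replicates; 2-cell embryos were not analysed here.

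Superoxide dismutases turn superoxide into hydrogen peroxide, which catalase, glutathione peroxidases and peroxiredoxins remove. Peroxiredoxins are recharged by thioredoxin and thioredoxin reductase, glutathione peroxidases by glutathione and glutathione reductase, and both routes draw their electrons from NADPH. NRF2, encoded by Nfe2l2, is the transcription factor that drives many of these genes and is held in check by KEAP1. Fully grown mouse oocytes are nearly silent in transcription, live on stored mRNA, and degrade a large share of it during maturation to MII, while some stored mRNAs gain longer poly(A) tails.

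The libraries held 2609783 to 4696626 gene counts, and levels are given as CPM, the counts of a gene scaled to a common total of gene counts, with mean ± SD over 3 libraries. Pik3c3 stood at 30.0 ± 4.99 CPM in GV control and 1.96 ± 0.615 CPM in GV cKO oocytes, and at 16.4 ± 5.44 and 3.66 ± 1.52 CPM at MII, without overlap at either stage. All 10 oocyte markers examined were detected in every group. Cumulus and granulosa markers were also present: the summed level of 22 such genes was 367 to 618 CPM in the GV libraries, 1299 to 1591 CPM in MII control and 991 to 2066 CPM in MII cKO. Per spike-in count the stages overlapped in that sum, at 0.00230 to 0.00467 in GV control and 0.00294 to 0.00332 in MII control. In cKO oocytes it was 0.00331 to 0.00480 at GV and 0.00150 to 0.00419 at MII. Most of that sum at MII was Serpine2, at 797 to 1354 CPM, while Amh was at 0 counts in all MII libraries. Without Serpine2, left out after the values were seen, the sum was 966 CPM in MII cKO library 1 and 194 to 430 CPM in the other MII libraries. The number of follicle cells carried along and the RNA each contributes cannot be told apart in pooled libraries. MII cKO library 1 also held the highest level among the 6 MII libraries for 16 of the 34 redox genes. Smart-seq2 primes on poly(A) tails, so a change in transcript number and a change in tail length cannot be told apart in any level below.

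The redox genes were expressed over a wide range, and a few carried most of the signal. Their summed level was 7336 ± 147 CPM in GV control and 6806 ± 498 CPM in GV cKO oocytes, and 3708 ± 218 and 3634 ± 251 CPM at MII. All GV libraries lay above all MII libraries of the same genotype, and the log2 difference was -0.99 in control and -0.91 in cKO oocytes. A two-sided exact permutation test gave p = 0.1 for both, the smallest value that 3 against 3 libraries allow. The exact permutation test also gave p = 0.1 for genotype at GV, where all 3 cKO libraries lay below the controls by a log2 difference of -0.11, but per spike-in count that difference was 0.29 with p = 0.5. At MII the genotype difference was -0.03 (exact permutation p = 0.7). Prdx1, Txnip, Prdx2, Sod1, Glrx and G6pdx together made up 82.5% of the sum in GV control and 80.8% in MII control. Among these 6, Prdx1 grew from 19.7% to 43.8% of the sum and Txnip from 13.3% to 21.2%, while Sod1 shrank from 14.1% to 3.79% and Glrx from 13.6% to 3.83%. At MII a cytosolic peroxiredoxin and the thioredoxin inhibitor thus led the sum.

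**Figure D1:**
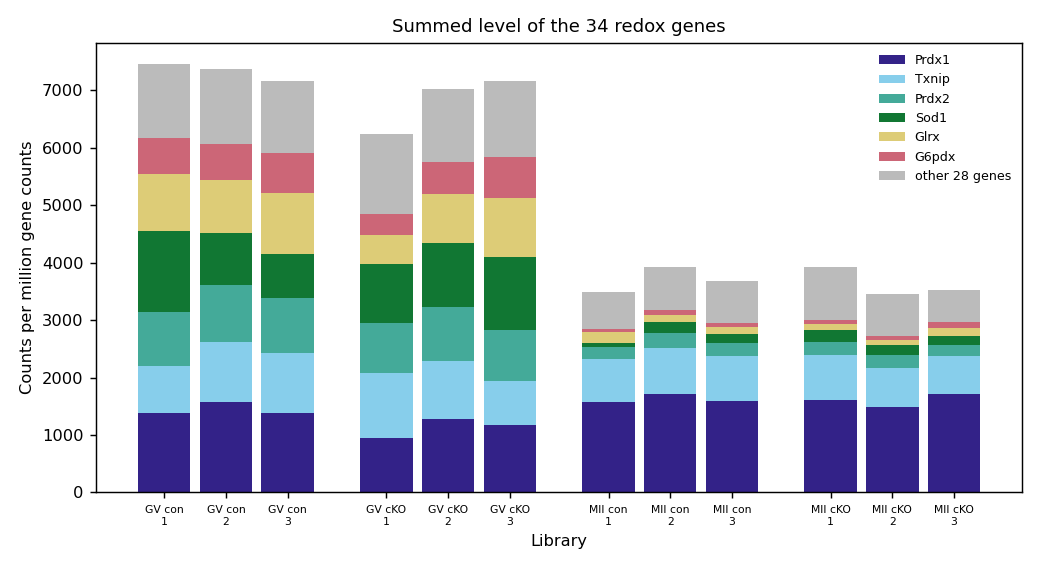
Summed level of the 34 redox genes in each library, in CPM (axis from 0), with the 6 most abundant genes and the other 28 stacked. GV libraries reached 6237 to 7459 and MII libraries 3460 to 3934, and the Sod1, Glrx, Prdx2 and G6pdx segments are shorter at MII.

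Levels per kilobase used the union of all annotated exons of a gene, which can be longer than the mRNA present. The order of genes therefore depends on that annotated length, such as 3970 bases for Sod1 and 3043 for Prdx1. On this measure Prdx1 was the highest redox gene in GV control oocytes at 476 ± 37.2 CPM per kb. Prdx2 at 313 ± 7.89, Txnip at 311 ± 42.1 and Sod1 at 260 ± 84.2 CPM per kb came next, and these 3 neighbours differed by less than their spread. G6pdx followed at 210.0 ± 15.4 CPM per kb. In MII control oocytes Prdx1 stood at 534 ± 26.2 and Txnip at 252 ± 9.27 CPM per kb, well apart from Prdx2 at 75.3 ± 8.86 and Gpx3, a secreted glutathione peroxidase, at 64.6 ± 12.7 CPM per kb. The last pair differed by less than its spread. Prdx1 was first and Txnip in the top 3 in all 4 groups.

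From GV to MII in control oocytes, more redox genes fell in relative level than rose. Of all genes tested 3928 were called lower and 3490 higher. Whether the redox genes differ from all genes in this was not tested. Of 27 redox genes with enough counts to test, 5 were called higher (Idh1, Nfe2l2, Gclc, Nqo1 and Txnrd1), against 30.1% of all 11607 genes tested, and 12 were called lower, against 33.8% of all genes (edgeR quasi-likelihood test, Benjamini-Hochberg adjusted p under 0.05 over all genes). The 12 were Glrx5, Gpx4, Glrx3, G6pdx, Prdx5, Sod1, Glrx, Txn2, Prdx3, Prdx2, Glrx2 and Txn1. The median log2 fold change of the 27 was -0.61, and that of all genes 0.01. These fold changes are relative to the other genes of each library after TMM scaling in edgeR. They can differ from ratios of mean CPM and do not measure RNA per oocyte. When spike-in totals set the scale, the median over all genes moved to -1.72 in control and -2.37 in cKO oocytes. On that scale 23 redox genes in control oocytes were called lower, where 70.1% of all genes were, and 24 in cKO oocytes, where 88.0% of all genes were, with 0 called higher in either. The ratio of gene counts to spike-in counts was 6.68 ± 2.19 in GV control and 2.19 ± 0.302 in MII control, and 8.94 ± 3.65 and 1.92 ± 0.363 in cKO oocytes. A gene called higher below took a larger share of the gene counts, and none of them was called higher per spike-in count.

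In cKO oocytes 6 of the 27 redox genes were called higher at MII, against 29.5% of all genes, and 12 lower, against 34% of all genes. Idh1, Nfe2l2 and Nqo1 were called higher in both genotypes. Glrx5, Gpx4, Glrx3, G6pdx, Prdx5, Sod1, Glrx, Txn2, Prdx3 and Prdx2 were called lower in both. Gclc, Txnrd1, Glrx2 and Txn1 passed the threshold in control oocytes only, and Gpx7, Gsr, Prdx1, Gclm and Prdx6 in cKO oocytes only. Differences of this kind were tested as an interaction, given further on.

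**Figure D2:**
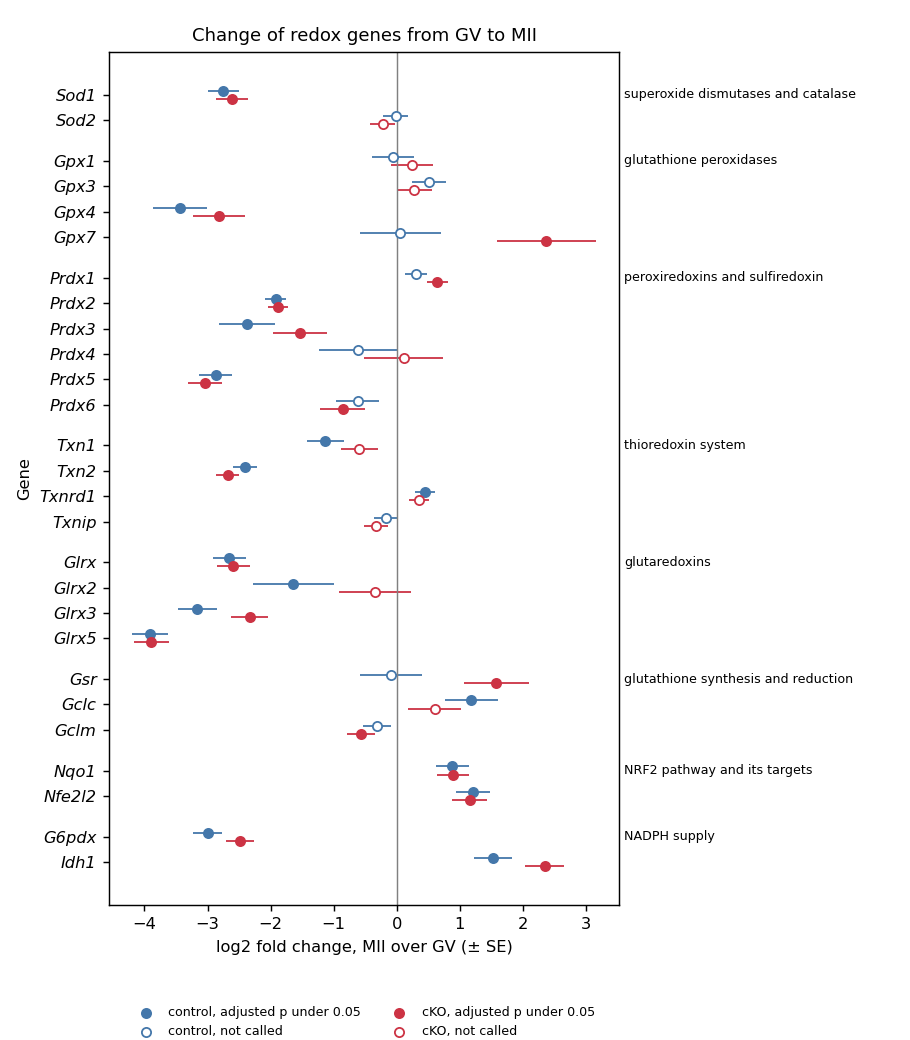
Log2 fold change from GV to MII (± SE) of the 27 tested redox genes, in control and cKO oocytes, grouped by role; filled points passed an adjusted p of 0.05. All 4 glutaredoxins lie left of 0 in control oocytes, and Idh1, Nfe2l2 and Nqo1 lie right of 0 in both genotypes.

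Of the superoxide dismutases Sod1 fell and Sod2 was not called. Sod1, the cytosolic copper-zinc enzyme, measured 1412, 910 and 778 CPM in the GV control libraries and 80.2, 183 and 159 CPM at MII, and in cKO oocytes 1021, 1111 and 1286 CPM against 194, 162 and 151 CPM. The stages did not overlap in either genotype, and Sod1 fell by 2.75 on the log2 scale in control (SE 0.25, edgeR adjusted p = 2.80e-08) and by 2.61 in cKO oocytes (SE 0.25). Sod2, the manganese enzyme of mitochondria, stood at 61.4 ± 3.37 CPM in GV control and 54.7 ± 8.19 CPM in MII control, a log2 fold change of -0.02 ± 0.20 SE that was not called. In cKO oocytes Sod2 was 63.6 ± 4.17 and 49.5 ± 5.49 CPM, also not called. Catalase, the peroxisomal enzyme, had 0 to 16 counts per library and was not tested.

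Of the glutathione peroxidases, 1 of 4 tested genes fell in control oocytes. Gpx4, which reduces lipid hydroperoxides in membranes and protects against ferroptosis, measured 54.4, 57.0 and 43.9 CPM in GV control and 2.73, 5.43 and 4.89 CPM in MII control libraries. In cKO oocytes it was 55.4, 56.2 and 52.3 CPM at GV and 13.8, 6.66 and 1.07 CPM at MII. Every GV library exceeded every MII library, and the fall was 10.8-fold in control (log2 -3.44 ± 0.43 SE, edgeR adjusted p = 2.14e-06) and 7.05-fold in cKO oocytes (log2 -2.82 ± 0.41 SE). A transcribed processed pseudogene of Gpx4, Gpx4-ps2, is annotated, and reads shared with it were not examined. Gpx1, the cytosolic enzyme, was at 20.1 ± 5.78 and 17.7 ± 10.3 CPM in control oocytes (log2 -0.06 ± 0.33 SE) and was not called. Gpx3 measured 94.0, 91.6 and 87.9 CPM in GV control and 134, 90.9 and 127 CPM in MII control, with overlapping stages and no call.

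Gpx1, Gpx3, Gpx4 and the thioredoxin reductases carry selenocysteine at the catalytic site, coded by TGA, while Gpx7 and Gpx8, which act in the endoplasmic reticulum, have cysteine there. Gpx7 lay farthest from 0 by genotype at GV among the glutathione peroxidases tested, and Gpx4 fell during maturation. A link between the residue and either difference was not tested. The coding windows around that codon are printed to show the residue, and the capitals mark the codon (GENCODE M21 transcripts, mm10).
Gpx3: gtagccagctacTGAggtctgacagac
Gpx4: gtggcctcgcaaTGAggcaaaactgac
Gpx1: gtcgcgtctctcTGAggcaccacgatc
Gpx7: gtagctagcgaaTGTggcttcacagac
The Gpx4 window lies at chr10:80054725-80054751 on the plus strand and the Gpx7 window at chr4:108403418-108403444 on the minus strand, both in coding exons. The Gpx4 codon is number 73 of a protein of 197 residues, and the Gpx7 codon number 56 of 186. Among the peroxidases with the selenocysteine codon Gpx4 fell, and Gpx1 and Gpx3 did not pass the test.

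Of 6 peroxiredoxins tested, Prdx2, Prdx3 and Prdx5 fell in both genotypes. Prdx1, the abundant cytosolic enzyme, measured 1377, 1579 and 1388 CPM in GV control and 1570, 1715 and 1586 CPM in MII control libraries, with overlap and no call. In cKO oocytes it measured 953, 1286 and 1172 CPM at GV and 1618, 1488 and 1707 CPM at MII, without overlap, and rose by 0.64 on the log2 scale (SE 0.17, edgeR adjusted p = 0.00317). Prdx2, also cytosolic, was 954 ± 24.1 CPM in GV control and 230 ± 27 CPM in MII control, and fell 3.79-fold in control and 3.69-fold in cKO oocytes. The neighbouring genes Rnaseh2a and Junb overlap Prdx2 exons on the opposite strand by 177 and 173 bases, and no source used here says whether the counting used strand.

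The other peroxiredoxins were less abundant. Prdx5, found in mitochondria, peroxisomes and cytosol, measured 73.4, 77.0 and 63.4 CPM in GV control and 8.18, 9.06 and 9.23 CPM in MII control libraries. The stages lay far apart, and Prdx5 fell 7.32-fold in control (log2 -2.87 ± 0.27 SE, edgeR adjusted p = 4.26e-08) and 8.20-fold in cKO oocytes, where it was 98.6, 87.3 and 72.3 against 7.28, 14.2 and 6.77 CPM. Prdx5 shares 409 exon bases with Trmt112 on the opposite strand. Prdx3, the mitochondrial peroxiredoxin, fell 5.19-fold in control, from 23.9 ± 3.30 to 4.14 ± 0.360 CPM, and 2.89-fold in cKO oocytes, where library 1 stood at 14.2 and the other MII libraries at 4.24 and 2.49 CPM. Without that library the Prdx3 log2 change in cKO was -2.50. Prdx6 was 17.2 ± 1.99 and 10.2 ± 2.96 CPM in control oocytes, not called, and its call in cKO (log2 -0.86, edgeR adjusted p = 0.0419) was lost in 7 of 12 fits that left out 1 library (GV control 1 or 3, GV cKO 2 or 3, MII control 3, MII cKO 2 or 3). A processed pseudogene of Prdx6, Prdx6-ps2, is annotated, and reads shared with it were not examined. Prdx4, of the endoplasmic reticulum, had 4 to 29 counts per library and was not called.

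Within the thioredoxin system, both thioredoxins fell in control oocytes, the cytosolic reductase rose slightly and the inhibitor was not called. Txn2, the mitochondrial thioredoxin, was 224 ± 14.6 CPM in GV control and 38.5 ± 6.50 CPM in MII control oocytes and fell 5.30-fold in control and 6.42-fold in cKO. Txn1, the cytosolic thioredoxin, was 105 ± 11.4 CPM in GV control and 44.3 ± 22.7 CPM in MII control, a 2.19-fold fall (edgeR adjusted p = 0.00263). In cKO oocytes Txn1 was 82.9 ± 13.1 and 50.5 ± 18.5 CPM, a log2 fold change of -0.59 ± 0.30 SE that was not called (edgeR adjusted p = 0.0885). Txnrd1, the cytosolic thioredoxin reductase, measured 143, 131 and 137 CPM in GV control and 155, 176 and 179 CPM in MII control libraries. The stages did not overlap, and the rise was 1.37-fold (log2 0.45 ± 0.16 SE, edgeR adjusted p = 0.0201). That call was lost in 4 of 12 fits that left out 1 library (GV control 1, 2 or 3, or MII control 3), with an adjusted p of up to 0.0722, and without the filter on low counts. In cKO oocytes Txnrd1 measured 146, 152 and 141 CPM at GV and 186, 177 and 146 CPM at MII, with overlap, and was not called. Txnip, which binds and inhibits thioredoxin, was 973 ± 131 and 786 ± 29.0 CPM in control oocytes, not called, and an antisense gene shares 606 of its exon bases.

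All 4 glutaredoxins fell in control oocytes. Glrx5, which passes iron-sulfur clusters on in mitochondria, measured 211, 285 and 247 CPM in GV control and 10.9, 13.3 and 20.9 CPM in MII control libraries, and in cKO oocytes 397, 262 and 232 CPM against 21.1, 17 and 17.1 CPM. It fell 15.1-fold in control (log2 -3.91 ± 0.28 SE, edgeR adjusted p = 1.34e-09) and 14.8-fold in cKO, the largest fall of the redox genes tested. Glrx3, a cytosolic iron-sulfur carrier, measured 94.4, 79.9 and 76.4 CPM in GV control and 3.82, 13.9 and 8.15 CPM in MII control, and fell 8.94-fold (log2 -3.16 ± 0.30 SE, edgeR adjusted p = 6.50e-08). In cKO oocytes Glrx3 measured 78.7, 82.1 and 94.3 CPM at GV and 20.7, 15.1 and 10.3 CPM at MII, a 5.03-fold fall. Glrx, the abundant cytosolic glutaredoxin, went from 998 ± 65.1 to 142 ± 34.2 CPM in control and from 799 ± 262 to 118 ± 27.4 CPM in cKO oocytes. Glrx2, the mitochondrial dithiol enzyme, had only 1 to 15 counts per library, and its fall in control oocytes (log2 -1.64 ± 0.64 SE, edgeR adjusted p = 0.0326) was lost in 3 of 12 fits that left out 1 library (GV control 2, MII control 1 or 3).

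The glutathione genes gave 1 rise in control oocytes. Gclc, the catalytic subunit of the rate-limiting ligase, measured 4.73, 8.18 and 4.47 CPM in GV control and 12.3, 9.66 and 14.1 CPM in MII control libraries. The stages did not overlap, and Gclc rose 2.27-fold (log2 1.18 ± 0.42 SE, edgeR adjusted p = 0.0200), a call lost in 3 of 12 fits that left out 1 library (GV control 1 or 3, MII control 3). In cKO oocytes it measured 13.4, 7.71 and 3.67 CPM at GV and 15.3, 8.17 and 11.4 CPM at MII, with overlap and no call. Gclm, the modifier subunit, was more abundant, at 52.8 ± 9.61 CPM in GV control and 38.8 ± 4.58 CPM in MII control, and was not called there. Gclm was called lower in cKO oocytes (log2 -0.57 ± 0.23 SE, edgeR adjusted p = 0.0376), and that call was lost in 5 of 12 fits that left out 1 library (GV cKO 1 or 2, MII cKO 1, 2 or 3). A pseudogene on the same strand, Gm6061, shares 244 exon bases with Gclm.

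Gsr, glutathione reductase, measured 4.06, 3.96 and 9.16 CPM in GV control and 3.27, 7.24 and 4.62 CPM in MII control, with overlap and no call. In cKO oocytes it measured 3.42, 2.76 and 3.67 CPM at GV and 16.5, 7.57 and 3.21 CPM at MII, so the stages overlapped through MII library 3. Gsr was called higher in cKO (log2 1.58 ± 0.52 SE, edgeR adjusted p = 0.0127). Without MII cKO library 1, the library with the highest cumulus marker sum, the log2 change was 0.88 and the adjusted p 0.151. The part of those follicle-cell markers in the result was not tested.

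Nfe2l2, which encodes NRF2, and its target Nqo1 were called higher in relative level in both genotypes. Among the other redox genes Idh1 was also called higher in both genotypes, and 10, G6pdx among them, were called lower in both. Gclc and Txnrd1 were called higher in control oocytes only, and Gclm lower in cKO oocytes only. The activity of NRF2 was not measured. Nfe2l2 measured 18.9, 15.8 and 16.0 CPM in GV control and 34.1, 36.2 and 35.8 CPM in MII control libraries, and in cKO oocytes 11.2, 14.6 and 30.7 against 37.2, 38.7 and 36.0 CPM. The MII libraries lay close together and above every GV library, and the rise was 2.31-fold in control (log2 1.21 ± 0.27 SE, edgeR adjusted p = 0.000803) and 2.22-fold in cKO. Nqo1, a quinone reductase, measured 12.5, 16.1 and 16.2 CPM in GV control and 31.1, 22.6 and 21.2 CPM in MII control, and in cKO oocytes 13.7, 17.1 and 20.0 against 27.2, 31.5 and 26.4 CPM. It rose 1.84-fold in control (log2 0.88 ± 0.26 SE, edgeR adjusted p = 0.00619) and 1.86-fold in cKO oocytes. On the spike-in scale both signs turned in both genotypes: Nfe2l2 stood at -0.51 and -1.06 and Nqo1 at -0.93 and -1.38 (log2, control and cKO). Hmox1, heme oxygenase and another NRF2 target, had 0 to 9 counts per library.

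The NADPH suppliers moved in opposite directions. G6pdx, which opens the pentose phosphate pathway, measured 612, 627 and 701 CPM in GV control and 57.5, 86.6 and 78.2 CPM in MII control libraries. In cKO oocytes it measured 362, 550 and 703 CPM at GV and 79.7, 76.3 and 101 CPM at MII. The stages stood far apart, and G6pdx fell 7.98-fold in control (log2 -3.00 ± 0.23 SE, edgeR adjusted p = 2.70e-09) and 5.62-fold in cKO. Ikbkg shares 418 exon bases with G6pdx on the opposite strand.

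Idh1, the cytosolic NADP-dependent isocitrate dehydrogenase, measured 37.5, 24.3 and 37.3 CPM in GV control and 79.3, 101 and 79.0 CPM in MII control libraries, and rose 2.88-fold (log2 1.53 ± 0.30 SE, edgeR adjusted p = 0.000260). In cKO oocytes it measured 18, 25.9 and 37.3 CPM at GV and 203, 102 and 70.6 CPM at MII, a 5.08-fold rise. Library 1 held the highest value there, and without it the log2 change in cKO was 1.84 against 2.34 with all libraries. On the spike-in scale the Idh1 change was -0.20 in control and 0.16 in cKO, with neither called. Per kilobase Idh1 stood beside G6pdx in MII control oocytes, at 31.1 ± 4.45 against 24.1 ± 4.86 CPM per kb, a gap smaller than the 2 spreads together.

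**Figure D3:**
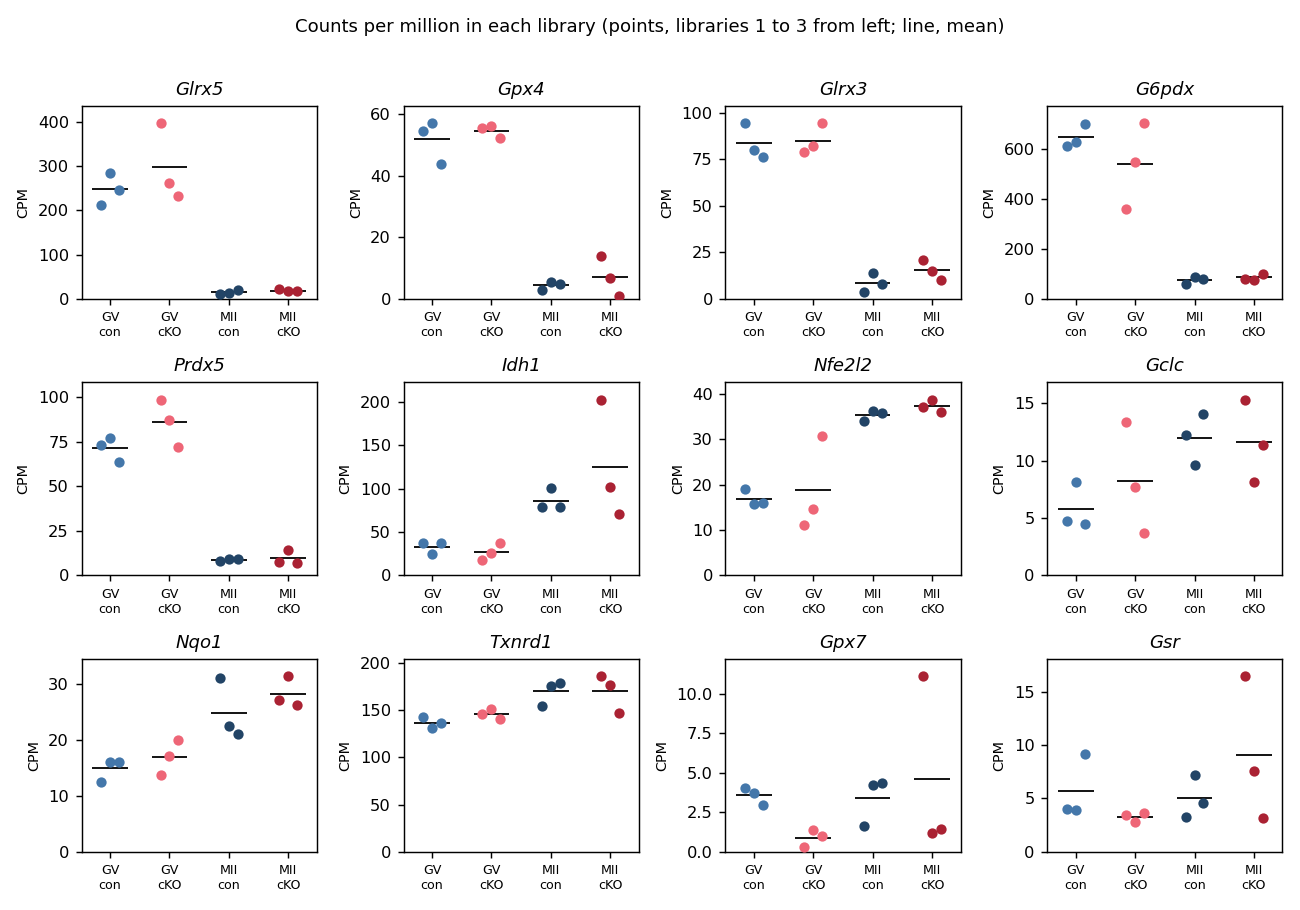
CPM in each library (linear axes from 0) for 12 redox genes in the 4 groups; horizontal lines are means of 3 libraries. Glrx5, Gpx4, Glrx3, G6pdx and Prdx5 stand high at GV and low at MII, Idh1 and Nfe2l2 the reverse, and MII cKO library 1 stands above the other MII cKO libraries for Gpx7, at 11.1 against 1.21 and 1.43.

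The ends of the 3′ UTRs were searched, after the changes were known, for the cytoplasmic polyadenylation element, the U-rich motif bound by CPEB1 that governs poly(A) tail length in maturing oocytes. The letters searched were TTTTAT or TTTTAAT on the transcript strand in the last 100 bases of 1 principal transcript per gene (GENCODE M21, mm10). Of the 5 redox genes called higher in control oocytes 4 held a match (80.0%), and of 11 called lower with a long enough UTR 1 did (9.09%). Among all genes the shares were 30.9% of those higher, 10.05% of those lower and 20.7% of all tested. The windows of the 4 risers, and of 3 genes that fell and hold only a poly(A) signal, are printed to show this; capitals mark the polyadenylation element and the poly(A) signals AATAAA or ATTAAA, which overlap the element in Idh1 and adjoin it in Nfe2l2.
Idh1: taaactgttaaTTTTAATTAAAatgaagta
Nqo1: tttctttttttTTTTAATcgaAATAAAtga
Nfe2l2: aggaaatgacatTTTTATATTAAAttgttt
Txnrd1: aattccatgtatTTTTATtacaatttttct
Glrx5: ggcctcctgcatAATAAAcccacaattcaa
Gpx4: ctgccttgtgggAATAAAatgtagaaatgt
G6pdx: cccaaccctgccATTAAAtcctcaaaacag
These lie in 3′ UTRs at chr1:65158635-65158664 (Idh1, minus strand), chr8:107388239-107388268 (Nqo1, minus), chr2:75675570-75675599 (Nfe2l2, minus), chr10:82897645-82897674 (Txnrd1, plus), chr12:105042873-105042902 (Glrx5, plus), chr10:80056409-80056438 (Gpx4, plus) and chrX:74409488-74409517 (G6pdx, minus). Gclc, the fifth gene called higher, held no match. Glrx2 was the gene that fell and held one, and Txnip and Gsr, not called in control oocytes, each held one as well. A match is a run of letters and was not tested as a binding site.

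Loss of Vps34 changed no redox gene past the threshold at GV. Of 28 tested genes 0 were called, where 0.0825% of all genes were, and 3 had an unadjusted p under 0.05, where 2.20% of all genes did (edgeR quasi-likelihood test); all 3 were lower in cKO. Counts of calls were 0 in DESeq2 too, which likewise gave 3 at an unadjusted p under 0.05, where 174 of 10911 genes did. Without GV cKO library 3, edgeR gave 6 such genes, all lower, where 11.5% of all genes had such a p, and still called 0. The other fits with 1 library left out gave 2 or 3 such genes, where 1.55% to 2.85% of all genes did. The median log2 difference of the 28 genes was -0.01. The standard errors were 0.16 to 0.55 with a median of 0.23. Even Gpx7, at -1.97 ± 0.55 SE, was not called, so differences of several such errors could go uncalled.

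The 3 genes were Gpx7, Gpx3 and Prdx1. Gpx7 measured 4.06, 3.69 and 2.98 CPM in GV control and 0.311, 1.38 and 1 CPM in GV cKO libraries, from 12, 14 and 14 counts against 1, 5 and 3. The groups did not overlap, and the log2 difference was -1.97 ± 0.55 SE (edgeR adjusted p = 1, unadjusted 0.00385). Leaving out 1 library at a time kept it between -2.45 and -1.61. Gpx3 measured 94.0, 91.6 and 87.9 CPM in control and 60.0, 73.3 and 72.3 CPM in cKO, also without overlap, with a log2 difference of -0.46 ± 0.17 SE (edgeR adjusted p = 1). Prdx1 measured 1377, 1579 and 1388 CPM in control and 953, 1286 and 1172 CPM in cKO, again without overlap, with a log2 difference of -0.40 ± 0.18 SE (edgeR adjusted p = 1). On the spike-in scale, where the median of all genes at GV moved to 0.46, the Prdx1 difference was 0.01 and that of Gpx3 -0.03, while Gpx7 stayed at -1.63.

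At MII 25 redox genes were tested and 0 called, where 0 of all 9677 genes were (0.00%). None had an unadjusted p under 0.05 in edgeR, where 9.01% of all genes did. In DESeq2 1 had, where 741 of 9677 genes did. With 1 library left out, edgeR gave 3 without MII cKO 3 (5.19% of all genes), 2 without MII control 2 (15.2%), 1 without MII cKO 2 (8.36%) and 0 in the other 3 fits. Pik3c3, the deleted gene, did not pass the threshold at MII either (log2 -2.19 ± 0.39 SE, edgeR adjusted p = 0.530), though its groups did not overlap, so 0 calls there do not exclude differences of that size. The log2 differences ran from -0.68 ± 0.33 SE for Gpx3 to 0.82 ± 0.42 SE for Glrx3, with a median of 0.04. Gpx3 measured 134, 90.9 and 127 CPM in MII control and 82.0, 109 and 36.7 CPM in MII cKO, with overlap, and so leaned the same way as at GV. Gpx7 measured 1.64, 4.23 and 4.34 CPM in control and 11.1, 1.21 and 1.43 CPM in cKO, where 1 library stood above all others and 2 below. The redox genes that were most abundant at MII differed little: Prdx1 by -0.05 ± 0.14 SE and Txnip by -0.19 ± 0.13 SE.

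**Figure D4:**
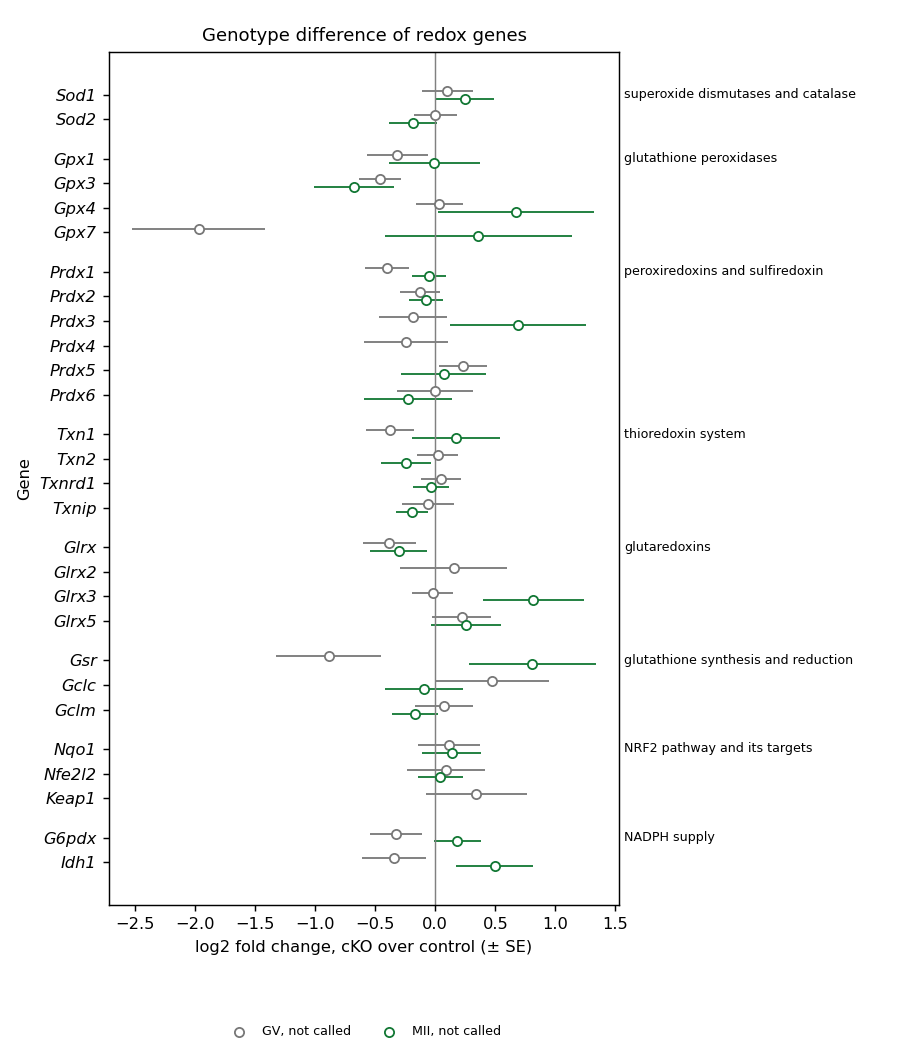
Log2 difference between cKO and control oocytes (± SE) for the redox genes tested at GV and at MII; open points did not pass an adjusted p of 0.05, which holds for all. Gpx7 at GV lies farthest from 0, at -1.97, and Glrx3 at MII reaches 0.82.

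The change from GV to MII was then compared between genotypes within 1 fit of all 12 libraries. Of 27 redox genes 0 were called, where 0.00862% of all genes were, and 2 had an unadjusted p under 0.05, where 5.24% of all genes did (edgeR quasi-likelihood test). DESeq2 called 0 and gave 3 at an unadjusted p under 0.05, where 574 of 11607 genes had such a p. In edgeR that number was 0 without MII control 1 (3.76% of all genes) or MII cKO 1 (4.76%), and 5 without MII control 2 (9.05%) or MII cKO 3 (4.77%). The 2 genes were Gpx7, with an interaction of 2.31 ± 1.02 SE, and Gsr, with 1.67 ± 0.72 SE on the log2 scale (edgeR adjusted p = 0.875 for both). Without MII cKO library 1 these were 0.61 and 0.98. Gpx7 had been called higher from GV to MII in cKO oocytes (log2 2.37 ± 0.78 SE, edgeR adjusted p = 0.0132), but without that library the change was 0.67 with an adjusted p of 0.463. For the genes called in only 1 genotype, such as Gclc, Txnrd1, Txn1 and Prdx1, the interaction did not pass, so a difference between genotypes was not shown.

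The 7 redox genes outside the maturation tests were scarce in every library. Txnrd2, the mitochondrial thioredoxin reductase, had 1 count in each of 2 GV libraries and 0 in all 6 MII libraries, which allows up to 0.155 CPM over those 6. Srxn1, which repairs overoxidised peroxiredoxins, had 0 to 5 counts, Gpx8 0 to 8, Hmox1 0 to 9 and Cat 0 to 16. Gss, glutathione synthetase, had 2 to 13 counts and Keap1 2 to 14. Keap1 was tested at GV, at 2.75 ± 0.334 CPM in control and 3.63 ± 0.868 CPM in cKO, and was not called. Prdx4 and Glrx2 fell below the count filter in the MII comparison only.

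Spread between libraries bounds what could be seen. Among the 25 redox genes tested at MII, the median coefficient of variation was 0.116 in GV control, 0.170 in GV cKO, 0.197 in MII control and 0.232 in MII cKO. The highest single value, 1.23, was that of Gpx7 in MII cKO.

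Other genes of redox control, a list with 80 in the table, showed rises and falls in similar number, as all genes tested did. In control oocytes 61 were tested from GV to MII, of which 19 were called higher and 22 lower, and in cKO 17 and 21. Mgst1, a membrane glutathione transferase, rose from 3.95 ± 1 to 75.1 ± 41.8 CPM in control (log2 4.33 ± 0.79 SE). Selenos, a selenoprotein of the endoplasmic reticulum, rose by a log2 of 2.64 but was not called in cKO, and Nfe2l3, a relative of NRF2, by 1.85. Ccs, the chaperone that loads copper into SOD1, fell from 10.5 ± 3.02 to 0.735 ± 0.553 CPM (log2 -3.60 ± 0.55 SE). Park7 fell from 101 ± 13.1 to 9.56 ± 3.26 CPM and Oser1 from 772 ± 182 to 51.5 ± 12.8 CPM. By genotype, 0 of 58 were called at GV and 0 of 54 at MII, where 0.0825% and 0.00% of all genes were. At an unadjusted p under 0.05 edgeR gave 2 and 7, where 2.20% and 9.01% of all genes had such a p. DESeq2 gave 2 and 5, where 174 of 10911 and 741 of 9677 genes had such a p.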

How the data were processed

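Gene-level read counts were deposited by the authors in 1 table of 55383 entries, of which 92 are ERCC spike-ins. Trimming with fastp, alignment with HISAT2 to mm10 and counting with featureCounts are named in the submitters' processing notes; no version, annotation or strand setting is given there. The column letters C and T were read as control and cKO, 12 columns were used, and 6 columns that match no label were left out. Chi-square tests of counts between libraries of a group gave at least 4.87 per degree of freedom, so each library was kept as its own sample. Where nothing says that pools came from different females, p-values measure the spread between these libraries only.

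Counts were tested in edgeR 4.0.16 (R 4.3.3) with TMM scaling, filterByExpr, robust quasi-likelihood fits and Benjamini-Hochberg adjustment over all genes tested, at 0.05. Genotypes were compared within a stage (6 libraries), and stages and the interaction in 1 fit of 12. Each SE was derived from the test, as the size of the log2 fold change divided by the square root of its quasi-likelihood F statistic. Summed levels were compared by exact permutation tests. The functions were tested on simulated counts. Alternatives were spike-in totals as library sizes, DESeq2 1.42.0, no count filter, a replicate block, other sample sets and each library left out. Positions and sequences came from GENCODE M21, with 53292 table symbols matched, and per-kilobase levels used the union of exons.

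All members are described by role. Values in every library are given for those with an unadjusted p under 0.05 in a genotype or interaction test and for the 5 largest rises and 5 largest falls in control maturation. The other redox genes named are the 3 largest rises and falls; further values were named after they were seen. The members, lists and rules were chosen with earlier results of these data known.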

Additional observations from a re-analysis of the deposited data

How the results depend on the processing

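The choice of scale had the clearest effect. With spike-in totals as library sizes, redox genes called higher and lower from GV to MII went from 5 and 12 to 0 and 23 in control, and from 6 and 12 to 0 and 24 in cKO oocytes. Log2 signs turned for Txnrd1 (-1.28), Gclc (-0.55), Nqo1 (-0.93), Nfe2l2 (-0.51) and Idh1 (-0.20) in control, for Prdx1 (-1.68), Gsr (-0.64), Nqo1 (-1.38) and Nfe2l2 (-1.06) in cKO, and for Prdx1 by genotype at GV (0.014). Per spike-in count, the summed level differed by genotype by 0.29 at GV and -0.23 at MII and between stages by -2.55 in control and -3.07 in cKO (log2). The spike-in scale assumes equal spike-in input, which was not tested. Leaving out 1 library gave 3 to 6 redox genes called higher in control oocytes. There were 3 without GV control 1, GV control 3 or MII control 3, where 3118, 3054 and 3156 of 11607 genes were. There were 6 without MII control 2 or MII cKO 3, where 3256 and 3513 were.

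No label says that replicate numbers pair the samples. Of 12 same-number pairs across groups 1 correlated above 0.1 (range -0.23 to 0.21). Different-number pairs reached -0.38 and 0.40, so with 3 libraries per group these correlations cannot decide whether samples were paired. The replicate block gave 17 of 27 redox genes called in control maturation and 16 in cKO, where 7272 and 7233 of 11607 genes were. Of the redox genes it called 0 in the other comparisons. Of all genes it called 11 of 10911 at GV, 0 of 9677 at MII and 1 of 11607 for the interaction. Gclm and Prdx6 lost their cKO calls. DESeq2 gave 17 and 19 calls in maturation, where 7306 and 7293 of 11607 genes were called.

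Depth limits the scarce genes: Gpx7 had 1 to 29, Glrx2 1 to 15 and Gsr 9 to 43 counts per library.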
